A study of Mus musculus with 24 samples.

Results

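The livers of male C57BL/6J mice were profiled on Illumina mouse bead arrays 48 h after an injection of antisense oligonucleotides against Sox6 or of control oligonucleotides. All liver arrays were taken and set apart by treatment, which gave 6 arrays of 4 livers for the SOX6 oligonucleotide (S1 to S4) and 8 arrays of 4 livers for the control oligonucleotide (C1 to C4). These are 14 of the 24 arrays of the study, whose other 10 arrays hold epididymal white fat. Both groups were fed chow ad libitum under a 12-h light-dark cycle and received a gapmer by the intraperitoneal route. They differ in the sequence that the gapmer targets. The ages of the mice are not given in the sources used here. No untreated livers are analysed here, and loss of the target and other effects of the oligonucleotide sequence cannot be told apart. Titles number the livers within each treatment, and p-values here measure the spread between these 4 and 4 livers.

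A gapmer pairs with its target RNA through a central DNA stretch, and the cellular enzyme RNase H then cuts the RNA strand of that hybrid. RNase H acts in the nucleus as well as in the cytoplasm, so introns of unspliced transcripts are accessible to it. SOX6 is a DNA-binding factor with a high mobility group box that bends DNA at short A-T-rich sites and works through partner proteins, since it has no activation domain of its own. It is best known from cartilage, skeletal muscle, red blood cell precursors and fat cell precursors, while the liver takes up much of a systemically injected oligonucleotide.

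Each liver array detected 32.9% to 36.4% of its 45281 probes, and repeat arrays of the same liver correlated over genes at 0.992 to 0.995 (Pearson). S2 and S3 were measured on 1 array each and the other 6 livers on 2, so the values of S2 and S3 carry more measurement error. All 16 hepatocyte markers on the array were detected, with a median log2 level of 13.08 to 13.26 in the SOX6 livers and 12.92 to 13.15 in the control livers. Few markers of T and NK cells (1 of 13), neutrophils (1 of 11) and fat cells (2 of 11) passed the detection filter. Adipoq, Plin1, Cd3e and S100a9 did not. Most markers passed for Kupffer cells and macrophages (14 of 15), endothelial cells (13 of 16), and stellate cells and fibroblasts (13 of 16). C1 and S2 stood apart. Their root mean square distance from the mean of their group was 0.248 log2 units for C1 and 0.237 for S2, against 0.166 to 0.204 for the other 6 livers. C1 also carried the highest summary of 14 Kupffer cell and macrophage markers, 0.73 above the mean of the 8 livers, against -0.54 to 0.21 in the other livers. The excess was not particular to these cells. C1 was also highest for endothelial markers, at 0.474, against at most 0.178 in the other livers. For stellate cell and fibroblast markers C1 read 0.305, against at most 0.092. In bulk tissue, fewer cells of a type and less RNA per cell cannot be told apart.

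Sox6 itself lay close to background in liver. Of its 5 probes 1 passed the detection filter, with 2 of 6 SOX6 arrays and 7 of 8 control arrays above background. The levels of Sox6 were 4.71, 4.81, 4.90 and 4.90 in the SOX6 livers, against 4.83, 5.24, 4.82 and 5.02 in the control livers. The groups overlapped, and the difference of -0.15 did not pass an exact two-sided permutation test (p = 0.229, smallest possible p 0.0286). The other 4 probes were detected on 0 liver arrays. A lower level of the target was therefore not detectable in this tissue by these probes.

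Across the 8731 genes tested, the livers differed little. The median size of the difference between SOX6 and control livers was 0.106 on the log2 scale, and the central 95% of the genes lay between -0.39 and 0.37. By limma's moderated test with Benjamini-Hochberg adjustment over all genes, 21 genes passed an adjusted p of 0.05, 0.241% of those tested. Of these 19 were lower (0.218%) and 2 were higher (0.0229%) in the SOX6 livers. The imbalance was narrower further from the threshold. At an unadjusted p under 0.05 there were 866 genes (9.92%), of which 455 were lower (5.21%) and 411 were higher (4.71%). Without regard to any test, 16 genes were lower and 6 higher by at least 1 log2 unit, and 107 were lower and 94 higher by at least 0.5. All 4 SOX6 livers lay below all 4 control livers in 293 genes (3.36%) and above them in 221 (2.53%).

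**Figure D1:**
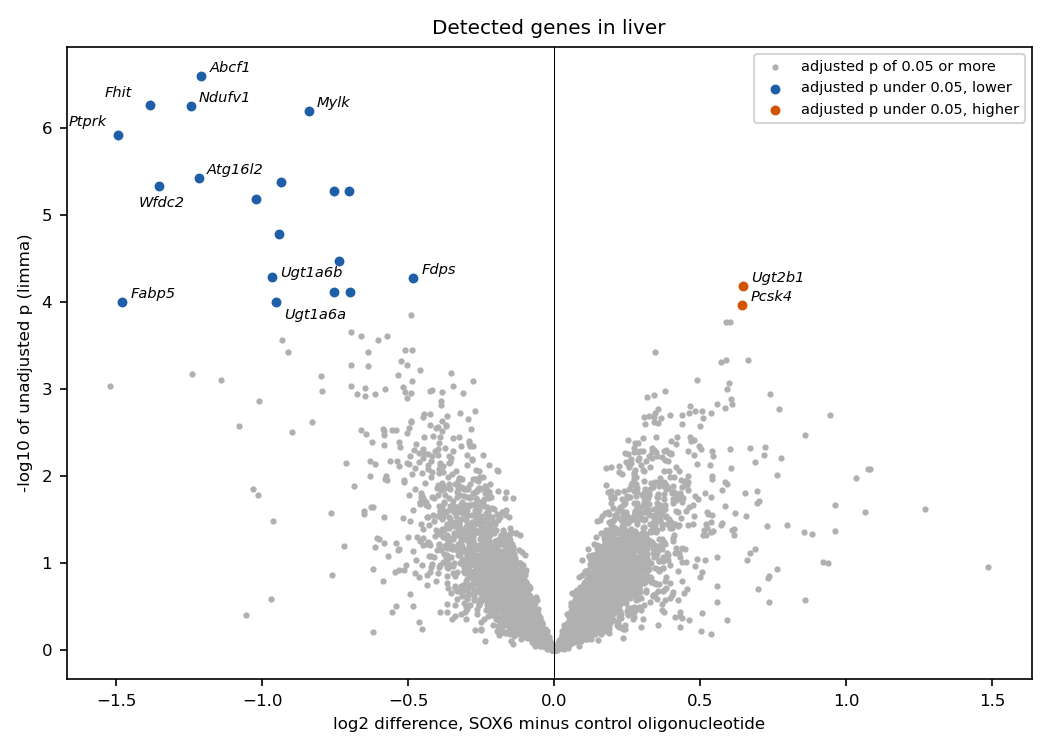
Each point is 1 of 8731 genes, with the log2 difference of SOX6 minus control livers on the x axis and -log10 of limma's unadjusted p on the y axis. The 19 genes that passed lower fill the upper left, down to -1.49, while the 2 that passed higher, Ugt2b1 and Pcsk4, sit near 0.65.

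The genes that fell are given here by the role known for each, and none of these groupings was tested. In all that follows, values are log2 levels in the order S1 to S4 and C1 to C4, and differences are SOX6 minus control. Ptprk, a receptor-type protein tyrosine phosphatase of cell-cell contacts, had the largest decrease of those that passed. Ptprk read 7.56, 8.30, 7.64 and 7.56 in the SOX6 livers, against 9.27, 9.37, 9.17 and 9.22 in the control livers. The treatments were far apart, and S2 was the SOX6 liver nearest to the controls. Ptprk fell, with a log2 difference of -1.49 (SE 0.15, limma adjusted p = 0.0021). A weaker probe of Ptprk read -1.03 and another -0.002, so the probes of this gene disagree.

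Mylk, the kinase that phosphorylates myosin light chain in smooth muscle and other contractile cells, had narrow groups. The levels of Mylk were 9.13, 9.04, 9.05 and 9.11 in the SOX6 livers, against 9.81, 9.99, 10.06 and 9.83 in the control livers. Mylk fell, with a log2 difference of -0.84 (SE 0.08, limma adjusted p = 0.0014). Its SOX6 livers lay close together and below every control. Itpr2 encodes the inositol trisphosphate receptor that is the main calcium release channel of the hepatocyte endoplasmic reticulum. Itpr2 read 7.85, 8.02, 8.05 and 8.14 in the SOX6 livers, against 8.52, 8.96, 8.74 and 8.79 in the control livers. Itpr2 fell, with a log2 difference of -0.74 (SE 0.11, limma adjusted p = 0.0227). The groups did not overlap, yet Itpr2 passed in 3 of the 8 fits that leave out a liver, and without S1, S3, C2, C3 or C4 the adjusted p reached up to 0.0999. Nfat5, a transcription factor of the response to hypertonic stress, read 6.76 to 7.32 in SOX6 livers and 7.67 to 7.87 in control livers. Nfat5 fell, with a log2 difference of -0.76 (SE 0.12, limma adjusted p = 0.0376). It passed in 1 of 8 such fits, the one without S2, and its adjusted p reached 0.187 otherwise. Other detected Nfat5 probes, which were dimmer, read -0.216 and -0.366.

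Ndufv1, Sugct and Vwa8 encode mitochondrial proteins, and Fabp5 and Fdps act on lipids. Ndufv1, the flavoprotein subunit of complex I that accepts electrons from NADH, was bright in every liver. The levels of Ndufv1 were 10.28, 10.93, 10.46 and 10.44 in the SOX6 livers, against 11.78, 11.76, 11.83 and 11.72 in the control livers. The control livers lay close together and the SOX6 livers all lay below, with S2 the highest of them. Ndufv1 fell, with a log2 difference of -1.24 (SE 0.12, limma adjusted p = 0.0014). Of 34 complex I subunits tested, 1 passed lower and 0 higher, and the median difference was 0.03. Sugct, a mitochondrial coenzyme A transferase that acts on glutarate, fell as well. Sugct read 6.34, 6.84, 6.59 and 6.49 in the SOX6 livers, against 7.52, 7.76, 7.65 and 7.43 in the control livers. Sugct fell, with a log2 difference of -1.02 (SE 0.13, limma adjusted p = 0.00522). No SOX6 liver reached the lowest control. Vwa8, a mitochondrial ATPase-domain protein, read 7.93 to 8.12 in SOX6 livers and 8.65 to 8.83 in control livers. Vwa8 fell, with a log2 difference of -0.70 (SE 0.08, limma adjusted p = 0.00468).

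Fabp5, a cytosolic carrier of fatty acids, followed Ptprk in the size of its decrease. The levels of Fabp5 were 5.81, 5.90, 5.32 and 5.81 in the SOX6 livers, against 7.66, 7.50, 6.40 and 7.21 in the control livers. S3 was the lowest liver and C3 the lowest control, and within chip 3 the difference was -0.098, against -1.38 to -2.06 in the other chips. Fabp5 fell, with a log2 difference of -1.48 (SE 0.25, limma adjusted p = 0.0441). It passed in 1 of 8 fits that leave out a liver, the one without C3, with an adjusted p up to 0.189 in the others. C1, with the highest macrophage marker summary, also had the highest Fabp5 level, 7.66. C2, with the lowest macrophage marker summary, -0.54, had the next highest Fabp5 level, 7.50. The part of those cells in the difference was not tested. Fdps makes farnesyl diphosphate, the branch point of sterol and isoprenoid synthesis. Fdps read 12.06, 11.99, 12.14 and 12.25 in the SOX6 livers, against 12.56, 12.62, 12.71 and 12.48 in the control livers. Fdps fell, with a log2 difference of -0.48 (SE 0.08, limma adjusted p = 0.0313). A dimmer Fdps probe read -1.53, with overlapping groups, and the call held in 2 of 8 fits that leave out a liver, those without S4 or C4, with an adjusted p up to 0.15.

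The roles of Abcf1, Atg16l2, Gsdmd and Ino80c lie in translation, autophagy, cell death and chromatin. Abcf1, an ATP-binding cassette protein without a membrane domain that binds ribosomes and initiation factor 2, had the smallest p of all genes. The levels of Abcf1 were 7.91, 8.25, 8.0 and 8.03 in the SOX6 livers, against 9.03, 9.25, 9.34 and 9.39 in the control livers. No SOX6 liver came near the lowest control. Abcf1 fell, with a log2 difference of -1.21 (SE 0.11, limma adjusted p = 0.0014). Atg16l2, a paralogue of the autophagy scaffold ATG16L1, separated as clearly. Atg16l2 read 6.34, 6.09, 6.08 and 6.0 in the SOX6 livers, against 7.19, 7.59, 7.54 and 7.05 in the control livers. Atg16l2 fell, with a log2 difference of -1.22 (SE 0.14, limma adjusted p = 0.00468). Of the 26 autophagy genes tested it was the member that passed, and the median of the list was 0.05. Gsdmd, the pore-forming executor of pyroptosis, read 7.64 to 7.87 in SOX6 livers and 8.37 to 8.59 in control livers. Gsdmd fell, with a log2 difference of -0.75 (SE 0.09, limma adjusted p = 0.00468). Ino80c, a subunit of the INO80 chromatin remodeller, read 7.09 to 7.49 in SOX6 livers and 7.87 to 8.16 in control livers. Ino80c fell, with a log2 difference of -0.70 (SE 0.11, limma adjusted p = 0.0376). It passed in 1 of 8 fits that leave out a liver, the one without S2, and reached an adjusted p of 0.155 otherwise. Other detected Ino80c probes, which were dimmer, read -0.235, -0.408 and -0.58.

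Some transcripts were no longer above background after the SOX6 oligonucleotide. Fhit, a hydrolase of diadenosine polyphosphates that lies across a common fragile site, was detected on 0 of 6 SOX6 arrays and 8 of 8 control arrays. The levels of Fhit were 4.37, 4.49, 4.30 and 4.44 in the SOX6 livers, against 5.50, 5.76, 5.87 and 6.02 in the control livers. Since the SOX6 livers give only an upper bound, Fhit was at least 1.92-fold lower in them (limma adjusted p = 0.0014). The transcript listed as the pseudogene Ppp4r1l-ps showed the same pattern, with 0 of 6 SOX6 arrays and 8 of 8 control arrays. Ppp4r1l-ps read 4.61, 4.83, 4.64 and 4.60 in the SOX6 livers, against 5.57, 5.61, 5.70 and 5.55 in the control livers. It was at least 1.7-fold lower in SOX6 livers (limma adjusted p = 0.00468). Gmds, an enzyme of GDP-fucose synthesis, and Syne4, a nuclear envelope protein, were also detected on every control array and no SOX6 array. Their adjusted p of 0.135 for Gmds and 0.146 for Syne4 missed the threshold, with bounds of 1.42-fold for Gmds and 1.22-fold for Syne4. These 4 were all the genes of this kind, and 0 genes showed the opposite pattern.

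Wfdc2, a small secreted protein with whey acidic protein domains, completed the group of large decreases. The levels of Wfdc2 were 6.30, 6.03, 6.10 and 5.95 in the SOX6 livers, against 6.99, 7.69, 7.70 and 7.40 in the control livers. Wfdc2 fell, with a log2 difference of -1.35 (SE 0.16, limma adjusted p = 0.00468). C1 was the lowest control and still lay above every SOX6 liver. Umad1, for which no role is given here, read 6.41 to 6.89 in SOX6 livers and 7.57 to 7.89 in control livers. Umad1 fell, with a log2 difference of -0.94 (SE 0.13, limma adjusted p = 0.0119).

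**Figure D2:**
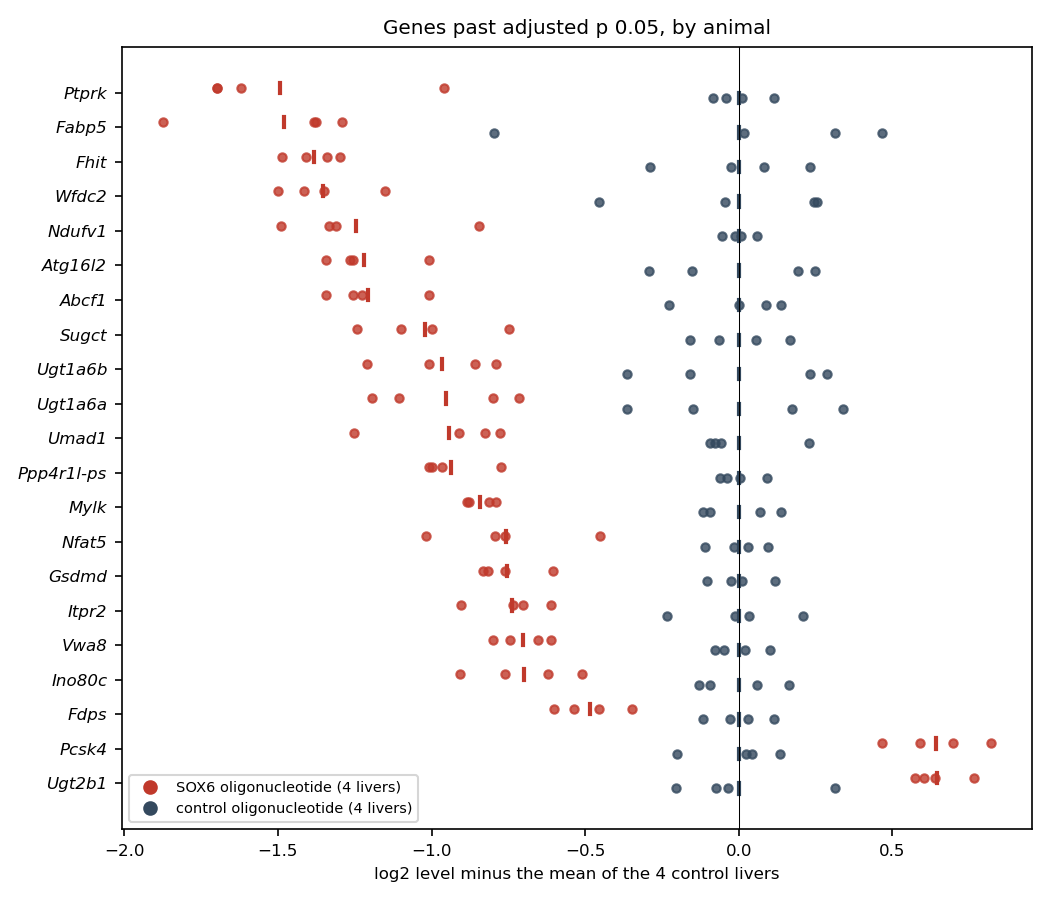
The x axis gives the log2 level of each liver minus the mean of the 4 control livers, with 1 row for each of the 21 genes that passed, SOX6 livers (red, upper points) above control livers (blue, lower points), and a bar for each mean. In every row the red and blue points are separate, and the control points of Fabp5 are the most spread.

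The genes that passed were not equally firm. Abcf1, Fhit, Ndufv1, Mylk, Ptprk, Atg16l2, Ppp4r1l-ps, Wfdc2, Vwa8, Gsdmd, Sugct and Umad1 passed in all 8 fits that leave out a liver, and the other 9 genes in 0 to 3 of them. With the mean of a gene's detected probes in place of the brightest, 16 genes passed, which held 14 of the 21, and Vwa8 was the 1 gene lost among the 12 that passed in all 8 fits. Leaving out both livers that stood apart, C1 and S2, gave 20 genes, 19 lower and 1 higher, which held 14 of the 21. Each chip of 6 arrays held both treatments. Within chips 1 to 4 the median difference of the 19 genes that fell was -0.94, -1.10, -0.78 and -1.06. Chip 3 holds 1 SOX6 and 1 control liver array. The genes were chosen on these same arrays, so the sign of the medians is no separate check of the calls. For 10 of the 21 genes the array has further detected probes, 21 in all, of which 21 had the sign of the gene and 15 lay past the midpoint between 0 and its difference. One of these probes, of Ptprk, read -0.002. Another probe of Ptprk passed the detection filter through the control livers alone, on 0 of 6 SOX6 arrays and 8 of 8 control arrays. All were read on the arrays that chose the genes, so their signs are no separate check either.

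The genes that fell included several very long ones. From start to end in the RefSeq annotation of GRCm38.p6 they spanned a median of 85.2 kb, against 21.7 kb for all genes tested. Fhit spans 1612 kb, Sugct 837.3 kb, Ptprk 522.6 kb, Itpr2 394 kb, Vwa8 353.3 kb and Mylk 257.2 kb, so that 6 of the 19 genes (31.6%) exceed 200 kb, against 3.5% of all genes. The shortest that fell, Fabp5, spans 4.03 kb. Of genes that were lower at an unadjusted p under 0.05, 12.2% exceed 200 kb, and of genes that were higher, 1.71%. These shares are descriptions without a test, since the span was looked at with the calls known.

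Genes just short of the threshold were looked at next. Between an adjusted p of 0.05 and 0.2 there were 53 lower and 35 higher genes, and those named next are the ones with the smallest p whose livers did not overlap. On the lower side, Supt3, a subunit of the SAGA complex, read 7.43 to 7.59 in SOX6 livers and 7.91 to 8.06 in control livers, a difference of -0.49 (limma adjusted p = 0.0565). Cask, a scaffold kinase of cell junctions, differed by -0.66 (limma adjusted p = 0.0793). Ube2e2, a ubiquitin-conjugating enzyme, differed by -0.60 and Gphn, which anchors receptors and makes the molybdenum cofactor, by -0.49 (limma adjusted p = 0.0822 for Ube2e2 and 0.0977 for Gphn). Supt3, Cask, Ube2e2 and Gphn each span more than 200 kb, 4 of the 10 genes next in this direction. The others were Acss2 and Acacb, which feed fatty acid synthesis, the lysosomal sulfatase Arsb, the epoxygenase Cyp2j9, the silencing factor Tnrc6c and Mat1a, the enzyme that makes S-adenosylmethionine in liver. Mat1a read 13.35, 13.76, 13.65 and 13.64 in the SOX6 livers, against 14.08, 14.10, 14.33 and 13.94 in the control livers. The difference of -0.51 did not pass (limma adjusted p = 0.0977), although no SOX6 liver reached a control liver.

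On the higher side, Gmfg, an actin regulator of blood cells, read 6.78 to 7.03 in SOX6 livers and 6.13 to 6.36 in control livers, a difference of 0.60 (limma adjusted p = 0.0625). Ngef, a guanine nucleotide exchange factor, differed by 0.59 (limma adjusted p = 0.0625). Klhl24, a substrate adaptor of a ubiquitin ligase, had SOX6 livers at 9.94 to 10.10 and control livers at 9.64 to 9.68, and differed by 0.35 (limma adjusted p = 0.0977). Slc2a1, the widely used glucose transporter GLUT1, differed by 0.60 and Mknk2, a kinase of initiation factor 4E, by 0.59 (limma adjusted p = 0.146 each). Bmf, a pro-death BH3-only protein, differed by 0.66 (limma adjusted p = 0.112). None of the 10 genes next in this direction, which also include the histone gene H2ac19, Adam32, Ugt2a3 and Fnip1, spans more than 200 kb. Adam32 was detected on 5 of 6 SOX6 arrays and 0 of 8 control arrays, a bound of at least 1.17-fold (limma adjusted p = 0.113).

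Drug-conjugating enzymes held 3 of the 21 genes, in both directions. UDP-glucuronosyltransferases couple glucuronic acid to bilirubin, steroids, phenols and drugs, and 15 of the 20 on the array were tested. Of these 2 passed lower and 1 higher, with 9 members above 0 and 6 below, a median difference of 0.02, and 26.7% without overlap in either direction against 5.89% of all genes. Ugt1a6a and Ugt1a6b, which conjugate planar phenols, fell together. The levels of Ugt1a6b were 9.39, 9.46, 9.04 and 9.24 in the SOX6 livers, against 10.48, 10.54, 9.89 and 10.09 in the control livers. Ugt1a6a read 9.12, 9.20, 8.72 and 8.81 in the SOX6 livers, against 10.26, 10.09, 9.55 and 9.77 in the control livers. S3 and C3 were the lowest liver of their group for both genes. The transcripts are nearly alike, and a probe may bind both. Ugt1a6b fell, with a log2 difference of -0.97 (SE 0.15, limma adjusted p = 0.0313). Ugt1a6a fell, with a log2 difference of -0.95 (SE 0.16, limma adjusted p = 0.0441). One of the other Ugt1a6a probes read -0.76 and another -0.09. In the fits that leave out a liver, Ugt1a6b passed in 3 of 8 and Ugt1a6a in 2 of 8, with an adjusted p up to 0.115 for Ugt1a6b and 0.189 for Ugt1a6a, and neither passed without both C1 and S2.

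Ugt2b1, an abundant liver enzyme of the steroid-conjugating subfamily, rose. The levels of Ugt2b1 were 12.12, 12.10, 12.16 and 12.29 in the SOX6 livers, against 11.32, 11.49, 11.45 and 11.83 in the control livers. All SOX6 livers lay above C4, the highest control. Ugt2b1 rose, with a log2 difference of 0.65 (SE 0.10, limma adjusted p = 0.0359). It passed in 1 of 8 fits that leave out a liver, the one without C4, and reached an adjusted p of 0.15. Ugt2a3 read 0.49 without passing (limma adjusted p = 0.14). Further members of the first subfamily read -0.46 for Ugt1a5, -0.44 for Ugt1a2, 0.12 for Ugt1a1 and 0.01 for Ugt1a9. Pcsk4, a proprotein convertase known from sperm, was the other gene that rose. Pcsk4 read 8.30, 8.19, 8.42 and 8.07 in the SOX6 livers, against 7.40, 7.65, 7.63 and 7.74 in the control livers. Pcsk4 rose, with a log2 difference of 0.64 (SE 0.11, limma adjusted p = 0.0449). Its other 3 detected probes read 0.66, 0.91 and 0.47, and it passed in 0 of 8 fits that leave out a liver, with an adjusted p of 0.062 to 0.186.

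Promoter sequences of these oppositely moving enzymes and of Fhit, the longest gene that fell, are printed because SOX proteins bind DNA directly. Each is the 250 bases before a RefSeq transcription start in GRCm38.p6, 5′ to 3′ on the strand of the gene, with capitals for AACAAT or its reverse complement ATTGTT, a core SOX site.
Ugt1a6a (chr1:88134559-88134808, plus strand): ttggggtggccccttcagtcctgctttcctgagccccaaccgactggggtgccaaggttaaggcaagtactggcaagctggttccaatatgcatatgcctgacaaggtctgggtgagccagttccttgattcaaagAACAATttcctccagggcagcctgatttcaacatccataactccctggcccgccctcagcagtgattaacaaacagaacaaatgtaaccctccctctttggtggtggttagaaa
Ugt2b1 (chr5:86926504-86926753, minus strand): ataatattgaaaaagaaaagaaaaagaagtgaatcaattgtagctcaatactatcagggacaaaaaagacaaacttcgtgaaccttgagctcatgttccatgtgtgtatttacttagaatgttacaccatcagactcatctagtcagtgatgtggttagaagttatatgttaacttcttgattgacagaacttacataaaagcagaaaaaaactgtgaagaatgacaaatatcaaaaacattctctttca
Fhit (chr14:10453459-10453708, minus strand): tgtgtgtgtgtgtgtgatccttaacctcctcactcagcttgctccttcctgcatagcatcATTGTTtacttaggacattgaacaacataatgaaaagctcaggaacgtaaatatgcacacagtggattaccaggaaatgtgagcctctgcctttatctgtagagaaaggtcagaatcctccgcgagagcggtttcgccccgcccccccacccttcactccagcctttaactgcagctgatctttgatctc
Ugt1a6a carries 1 copy and Ugt2b1 carries 0. Fhit carries 1 copy before the start printed here, which lies downstream of its other start. Before that other, upstream start (chr14:11162036-11162285, minus strand, not printed) it carries 0. The motif occurs in 6.51% of the 7142 tested genes with a promoter in the table, on either strand. Among the 14 genes past the threshold that have one, 2 hold it (14.3%). Genes lower at an unadjusted p under 0.05 held it in 6.76% and genes higher in 5.71%, both near the share of all genes. A match of letters is not evidence of binding, and the sequence of the gapmer is not given in the sources used here.

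**Figure D3:**
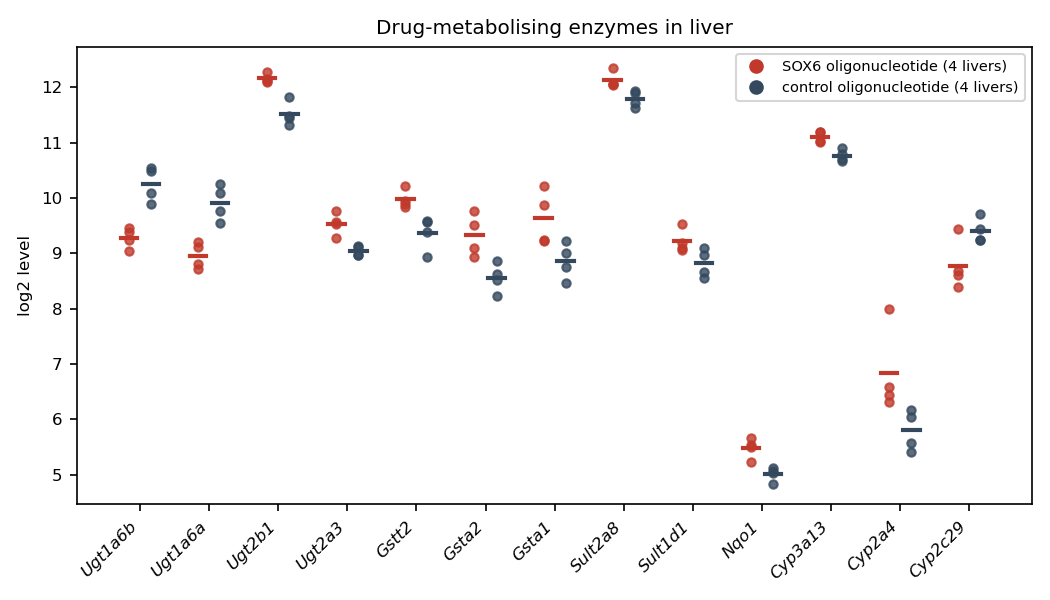
The y axis gives the log2 level of 13 drug-metabolising genes in each of 4 SOX6 livers (red, left) and 4 control livers (blue, right), with a bar for each mean. Ugt1a6b and Ugt1a6a lie lower in SOX6 livers and Ugt2b1 higher, and S2 stands above the other SOX6 livers for Cyp2a4 and Cyp2c29.

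Other enzymes of drug metabolism did not pass the threshold. Of 20 glutathione S-transferases, 15 read higher, 6 of them at an unadjusted p under 0.05 (4.71% of all genes) and 3 without overlap (15%, against 2.53% of all genes). The median difference was 0.09, and 0.043 to 0.162 with 1 liver left out. Gsta1 and Gsta2, alpha-class enzymes, read 0.78 for Gsta1 and 0.77 for Gsta2 (limma adjusted p = 0.263 and 0.179). Gstt2, of the theta class, read 0.61 (limma adjusted p = 0.166). The levels of Gstt2 were 9.96, 9.89, 10.22 and 9.84 in the SOX6 livers, against 9.56, 8.93, 9.59 and 9.39 in the control livers. All SOX6 livers lay above the controls for Gstt2 by this probe, while another detected Gstt2 probe read 0.236 with overlapping groups. Of the 7 genes of sulfate conjugation 5 read higher, with a median of 0.22, which was 0.111 without S2, 0.114 without C4 and 0.02 with undetected members included. The mean level of the list was higher in each SOX6 liver than in each control liver. Sult2a8 read 0.33 without overlap (limma adjusted p = 0.25), and Sult1d1 and Sult5a1 read 0.40 and 0.47 with overlap. Nqo1, a quinone reductase that NRF2 induces, read 0.47 (limma adjusted p = 0.237), and the median over 14 NRF2 targets was 0.04.

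Cytochromes P450 split. Of 23 P450 genes and partners, 13 read higher and 10 lower with a median of 0.02, and 5 were higher without overlap (21.7%, against 2.53% of all genes). Cyp3a13 read 0.34 with its groups apart (limma adjusted p = 0.146). Cyp3a13 read 11.03, 11.19, 11.02 and 11.20 in the SOX6 livers, against 10.90, 10.71, 10.79 and 10.67 in the control livers. Cyp2a4 read 1.03, with S2 at 7.99, the other SOX6 livers at 6.32 to 6.59 and the control livers at 5.40 to 6.17 (limma adjusted p = 0.316). The Cyp2a4 difference was 0.64 without S2. Cyp2c29, a P450 that is not in the pericentral list, read -0.63 with overlapping groups (limma adjusted p = 0.312). Cyp1a2 and Cyp2e1, the classic pericentral P450s, read 0.04 for Cyp1a2 and -0.02 for Cyp2e1. The 15 pericentral genes as a list had a median of -0.02. By limma 0 had an unadjusted p under 0.05 (9.92% of all genes) and 0 passed the adjusted threshold (0.241% of all genes).

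**Figure D4:**
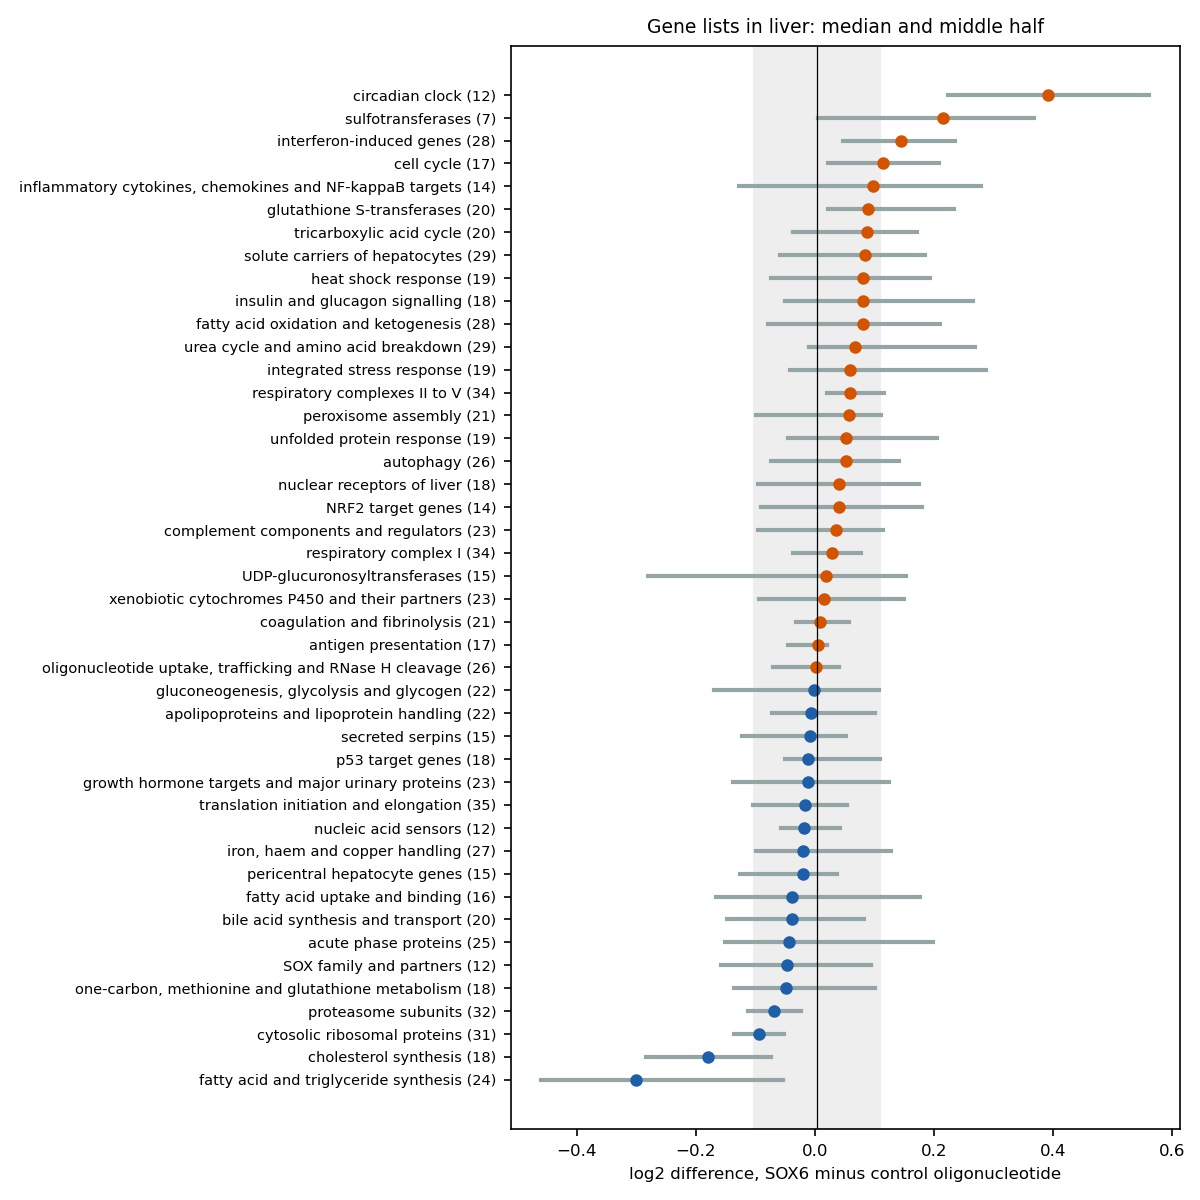
For each of 44 gene lists, with the number of members tested in brackets, the dot is the median log2 difference of SOX6 minus control livers and the bar runs from the lower to the upper quartile. The grey band and the line give the same for all 8731 genes, and 38 of the medians lie within 0.1 of 0.

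Of 44 lists of liver functions, 38 held no member past the adjusted threshold, and 38 had a median within 0.1 log2 units of 0. Since 0.241% of all genes passed, an empty list is the usual case and does not show that a function was unaffected. A mean level per liver was formed from the members of a list, each centred on the 8 livers. This level was lower in every SOX6 liver than in every control liver for 1 list, the cytosolic ribosomal proteins, and higher for 4, namely sulfate conjugation, urea cycle and amino acid breakdown, respiratory complexes II to V, and the circadian clock. These lists were picked out after their values were seen and carry no test.

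Ribosomal proteins and the proteasome read slightly and widely lower. Of 31 cytosolic ribosomal proteins 28 were below 0, against 4283 of 8731 genes, and the median was -0.09. Their mean level was -0.072 to -0.027 in SOX6 livers and 0.014 to 0.085 in control livers. Rpl10a read -0.20, Rpl37 -0.14 and Rps10 -0.15 without overlap, and 5 members in all were lower without overlap (16.1%, against 3.36% of all genes). None passed the threshold (limma adjusted p = 0.29 for Rpl10a, 0.36 for Rpl37 and 0.47 for Rps10). Without C1 and S2 the median of the list was -0.06. Of 32 proteasome subunits 26 were below 0, with a median of -0.07. The proteasome mean level was -0.062 to 0.02 in SOX6 livers and 0.008 to 0.054 in control livers. S1, at 0.02, lay within the control range. Psmd4, the ubiquitin receptor of the regulatory particle, read -0.28 (limma adjusted p = 0.14). The levels of Psmd4 were 11.18, 11.16, 11.11 and 11.12 in the SOX6 livers, against 11.44, 11.42, 11.47 and 11.36 in the control livers. Psmd4 had narrow groups that did not overlap. Psmd11, a lid subunit, also read -0.28 (limma adjusted p = 0.269), while another detected Psmd11 probe read -0.045. The members above 0 were the immunoproteasome subunits Psmb8, Psmb9 and Psmb10, with Psmc6, Psmd6 and Psme2.

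Respiratory complexes II to V leaned the other way, while the mean levels of complex I and of the tricarboxylic acid cycle overlapped between the groups. Of 34 subunits of respiratory complexes II to V, 28 read higher, with a median of 0.06 and a mean level of 0.009 to 0.043 in SOX6 livers and -0.05 to -0.008 in control livers. Cox6c of complex IV read 0.17, Uqcrc1 of complex III 0.19 and Sdhd of complex II 0.28, and none passed (limma adjusted p = 0.411, 0.414 and 0.487). Within complex I, Ndufa1 read 0.19 and Ndufa6 -0.19, both without overlap (limma adjusted p = 0.279 and 0.29). In the tricarboxylic acid cycle 14 of 20 genes read higher, while Cs, the citrate synthase, read -0.42 (limma adjusted p = 0.255). Cs read 8.97, 8.40, 8.88 and 8.63 in the SOX6 livers, against 9.10, 9.23, 9.20 and 9.02 in the control livers. The SOX6 livers lay below the controls for Cs. Suclg2, of the same cycle, read -0.22 with overlapping groups (limma adjusted p = 0.418). The mean level of the cycle was -0.005 to 0.065 in SOX6 livers and -0.126 to 0.048 in control livers.

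Fatty acid oxidation and amino acid breakdown held scattered higher readings. Of 28 genes of fatty acid oxidation and ketogenesis 18 read higher, with a median of 0.08. Hadhb, the thiolase subunit of the mitochondrial trifunctional protein, read 0.31, and Acaa1a, the peroxisomal thiolase, -0.27, both without overlap (limma adjusted p = 0.29 for Hadhb and 0.182 for Acaa1a). Of 29 genes of the urea cycle and amino acid breakdown 21 read higher, 9 of them at an unadjusted p under 0.05 (4.71% of all genes), with a median of 0.07 that was 0.057 to 0.134 with 1 liver left out. Otc, which makes citrulline in the urea cycle, read 0.46 (limma adjusted p = 0.25). Ivd, of leucine breakdown, read 0.34 without overlap (limma adjusted p = 0.192). In sulfur amino acid metabolism, Cth, which releases cysteine from cystathionine, read 0.56, and Csad, which makes hypotaurine, read -0.66 without overlap (limma adjusted p = 0.167 for Cth and 0.21 for Csad). The levels of Csad were 11.71, 12.08, 12.08 and 11.31 in the SOX6 livers, against 12.37, 12.64, 12.67 and 12.15 in the control livers. Another Csad probe read -0.77.

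Bile acid, transport and secretory genes were looked at gene by gene. Cyp39a1, an oxysterol hydroxylase, read 0.61 without overlap (limma adjusted p = 0.155), and Cyp7b1, of the alternative bile acid pathway, 0.43 (limma adjusted p = 0.424). The 20 bile acid genes had a median of -0.04. Among 29 solute carriers 16 read higher, with a median of 0.085 that was -0.01 without C1, while 4 were lower without overlap and 1 higher (3.36% and 2.53% of all genes). Slco2b1, an organic anion transporter, read -0.31, the manganese exporter Slc30a10 -0.65 and the magnesium transporter Slc41a2 -0.53 (limma adjusted p = 0.146, 0.219 and 0.25). Slc30a10 read 6.95, 6.10, 6.62 and 6.69 in the SOX6 livers, against 7.07, 7.47, 7.11 and 7.29 in the control livers. Slc30a10 was lowest in S2. Of the secreted products, the lectin Mbl1 read -0.28, the lipoprotein component Apom -0.35 and the clotting factor F11 0.31, all without overlap (limma adjusted p = 0.209, 0.25 and 0.2). Medians were -0.04 for 25 acute phase proteins, 0.04 for 23 complement genes and 0.01 for 21 coagulation genes, and none of these lists held a gene past the threshold. Esrra, a nuclear receptor that drives mitochondrial genes, read 0.44 without overlap (limma adjusted p = 0.182), and the 18 nuclear receptors had a median of 0.04.

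No gene of the lists of responses to foreign nucleic acids or injury passed the threshold. Of 28 interferon-induced genes 24 read higher with a median of 0.15, which was 0.07 to 0.217 with 1 liver left out and 0.258 without C1 and S2. Of them 0 were without overlap (5.89% of all genes) and 0 passed by limma (0.241% of all genes). By limma 2 had an unadjusted p under 0.05 (9.92% of all genes). In lists this short, such counts do not show that a response was absent. The levels of Isg15 were 7.94, 6.97, 7.57 and 8.11 in the SOX6 livers, against 7.33, 6.69, 7.09 and 7.34 in the control livers. Isg15, a ubiquitin-like interferon product, overlapped between the groups (difference 0.54, limma adjusted p = 0.485), and S2 and C2 were the low livers. Among 12 nucleic acid sensors, 17 antigen presentation genes and 14 inflammatory genes, 0 reached an unadjusted p of 0.05, against 9.92% of all genes. The same held for 26 genes of oligonucleotide uptake, trafficking and RNase H cleavage, whose median was 0.002. Medians were 0.05 for the unfolded protein response (19 genes), 0.06 for the integrated stress response (19 genes), 0.08 for the heat shock response (19 genes, -0.028 without C1) and -0.01 for p53 targets (18 genes). Ppp1r15a, which restores translation after stress, read 0.34 without overlap (limma adjusted p = 0.425). Rrm2b, a ribonucleotide reductase subunit and p53 target, read 0.32, also without overlap (limma adjusted p = 0.405). Of 17 cell cycle genes 13 read higher with a median of 0.12 (0.045 to 0.198 with 1 liver left out). They were led by Ccne1 at 0.54 and Birc5 at 0.34, with overlapping groups (limma adjusted p = 0.358 for Ccne1 and 0.416 for Birc5). Both lay near background. Ccne1 was detected on 6 of 6 SOX6 arrays and 4 of 8 control arrays. For Birc5 it was 5 of 6 SOX6 arrays and 2 of 8 control arrays.

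In the lists of lipid synthesis and of the clock, members other than Fdps did not pass. Of 24 genes of fatty acid and triglyceride synthesis 18 read lower with a median of -0.30, and of 18 genes of cholesterol synthesis 15 with a median of -0.18. The mean levels overlapped for both lists. For fatty acid and triglyceride synthesis C1 read -0.176, within the SOX6 livers at -0.179 to -0.1, and the other controls 0.123 to 0.322. For cholesterol synthesis C4 read -0.142, within the SOX6 livers at -0.174 to -0.037, and the other controls 0.09 to 0.234. Of 12 clock genes 11 read higher with a median of 0.39, and the median was 0.19 without C1 and S2. C1 read lowest of the 8 livers for Per2, at 7.40, against 8.78 to 9.22 in SOX6 livers and 8.27 to 8.79 in the other control livers.

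Epididymal fat of 4 SOX6 and 4 control samples served to ask whether the liver changes were shared. After joint normalization, 5 of 8243 genes (0.0607%) passed limma's interaction test for a liver difference unlike that of fat, and all 5 had passed in liver. Fhit differed by -1.80 in liver and -0.09 in fat (interaction -1.71, SE 0.26, limma adjusted p = 0.0268). Atg16l2 differed by -1.15 in liver and 0.16 in fat (interaction -1.31, SE 0.22, limma adjusted p = 0.0402). Ppp4r1l-ps differed by -1.22 in liver and -0.10 in fat (interaction -1.13, SE 0.20, limma adjusted p = 0.0431). Ndufv1 differed by -1.13 in liver and -0.21 in fat (interaction -0.92, SE 0.16, limma adjusted p = 0.0415). Abcf1 differed by -1.10 in liver and -0.22 in fat (interaction -0.88, SE 0.13, limma adjusted p = 0.0268). In fat the differences of these 5 genes lay between -0.22 and 0.16. This interaction rests on few livers: 0 to 2 genes passed when 1 replicate number was left out, with 382 to 1007 genes at an unadjusted p under 0.05.

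Of the 21 genes, 20 were detected in fat, all but Ugt2b1, and 11 had the sign of liver there. The 19 that fell in liver had a median of -0.89 in liver in this joint fit and -0.05 in fat. For 18 of the 20 the fat difference was the smaller, but the genes were chosen for their liver difference, so neither this nor the medians show how far the changes were shared. Mylk read 1.12 in fat, where the SOX6 samples spread over 11.71 to 13.95 and the controls over 11.52 to 12.09, and its interaction did not pass (limma adjusted p = 0.631). Fdps read 0.52 in fat and Ino80c -0.45, and neither interaction passed. The fat samples were far from alike for some genes. Wfdc2 read 9.19 in fat S3 and 9.15 in fat C3, against 4.36 to 5.16 in the other fat samples. Its interaction was -1.41 (SE 1.37, limma adjusted p = 0.858). Mfsd2a read 10.52 in fat S2 and 10.85 in fat S4, against 4.42 to 5.05 in the others. A gene that did not pass the interaction test is therefore not shown to be shared.

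**Figure D5:**
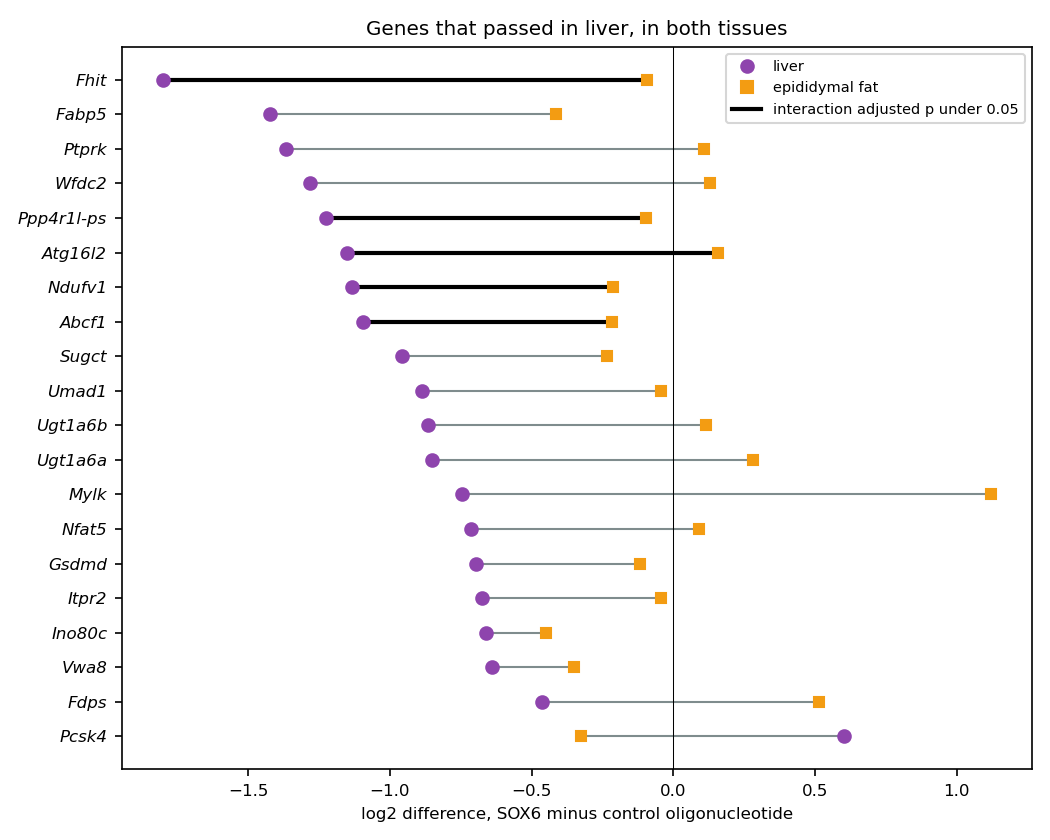
For the 20 genes that passed in liver and were detected in fat, the x axis gives the log2 difference of SOX6 minus control in liver (circles) and in epididymal fat (squares) after joint normalization. Thick lines join the 5 genes that passed the interaction test, whose fat values lie near 0, and Mylk reads 1.12 in fat.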

How the data were processed

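Total RNA of 14 liver arrays (6 SOX6, 8 control) on 4 chips of 6 arrays was used, with 10 fat arrays for the tissue comparison. Per the labels, RNA was labelled and hybridised to Illumina mouse bead arrays. The submitters' processing notes name GenomeStudio, and its version is not given in the sources used here. The deposited intensity values are probe signals with the background subtracted, not normalized between arrays, and 32.1% to 37% of the probes on a liver array lie below 0. A detection p-value was deposited beside each signal. The authors' log2 values were used as an alternative.

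The liver arrays alone went through neqc (limma 3.58.1, R 4.3.3), which fits the background to the detection p-values, adds an offset of 16, applies quantile normalization and takes log2. The offset understates changes of dim genes. Repeat arrays were averaged, giving 4 against 4 livers. A probe was kept if its detection p was under 0.05 on every array of at least 3 livers, and a gene was its brightest kept probe. Of 34885 probes paired with 1 gene, 34807 matched RefSeq, and 10378 probes had no gene and 18 had several. This left 8731 of 19057 genes. The two-sided test was lmFit with eBayes (trend), adjusted by Benjamini-Hochberg at 0.05. The fit was tested on simulated data. Standard errors are limma's. The bound of a gene not detected in a group sets its brighter mean against the lowest detected signal of each array. The tissue comparison is the interaction term after neqc of all 24 arrays.

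Named genes are every Sox6 probe, every gene past the threshold, up to 10 genes per direction at an adjusted p of 0.05 to 0.2 without overlap, up to 3 members per list with the smallest unadjusted p under 0.05, and the 5 genes with the largest control spread. Other members named for contrast were chosen after their values were seen. The comparison, the 44 function lists and the 12 marker lists were chosen with earlier results of these data known, and lists carry no test. Same-numbered livers were not treated as paired: their deviations correlated at -0.0365 to 0.326, and 1 of 4 pairs exceeded 0.1. Alternatives covered normalization, offset, repeat arrays, chip, replicate block, array weights, detection, probe choice, variance model, threshold and each liver left out. Leaving out C1 and S2 together was added after the data were seen.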

Additional observations from a re-analysis of the deposited data

Results flagged for a closer look

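Among 250 groups of 4 livers of the named genes, 14 held a liver whose gap to the nearest other was large against the range of its group by Dixon's criterion, and chance alone flags about 1 in 20 groups. In SOX6 livers S2 read 8.3 for Ptprk, with the others at 7.56 to 7.64, and 7.99 for Cyp2a4, with the others at 6.32 to 6.59. S3 read 5.32 for Fabp5 (others 5.81 to 5.9) and 12.36 for Sult2a8 (others 12.04 to 12.07). S4 read 6.59 for Bmf (others 6.32 to 6.34) and 8.99 for Esrra (others 8.72 to 8.75). S1 read 9.15 for Pck1 (others 9.88 to 10.01) and 7.7 for Ulk2 (others 7.94 to 7.97).

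In control livers C3 read 7.31 for Tnrc6c (others 6.85 to 6.92), 9.64 for Klhl24 (others 9.67 to 9.68) and 12.47 for Acaa1a (others 12.29 to 12.3). C4 read 7.89 for Umad1 (others 7.57 to 7.61) and 9.49 for Cela1 (others 8.69 to 8.77). C1 read 4.42 for Erdr1 (others 9.74 to 10.52).

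By limma's interaction test the liver difference minus the fat difference was -1.71 for Fhit, -1.31 for Atg16l2, -1.13 for Ppp4r1l-ps, -0.92 for Ndufv1 and -0.88 for Abcf1.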

How the results depend on the processing

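With the authors' log2 values limma called 22 genes against 21, all 21 kept. Joint normalization of 24 arrays gave 22, cyclic loess 21, an offset of 50 gave 20 and the mean of a gene's detected probes 16. The count was 110 (72 lower, 38 higher) with chip as a fixed term and unaveraged arrays, and 99 (69 lower, 30 higher) with unaveraged arrays alone, where repeat arrays add degrees of freedom but no livers. It was 36 with array weights, 34 at an adjusted p of 0.1 and 13, all lower, without an intensity trend. With the replicate number as a block it was 43 (28 lower, 15 higher), 19 of the 21 kept. The livers were not treated as paired, although 4 of 8 correlated best with their own number, a hint from the data and not the design. Each liver left out in turn gave 12 to 22 genes, with 12 without S3 and 12 without C2.

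The interaction with fat gave 4 genes with the authors' log2 values, 5 with the replicate block and 2 with genes detected in either tissue. With a replicate number left out in both tissues limma gave 0 to 2, and 0 without S1, S3, S4, C1, C2 or C4, with 382 to 714 genes at an unadjusted p under 0.05 in those fits.

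Among the genes named for their liver difference none changed sign in it, whereas some interaction values that did not pass did. Over all alternatives 2656 values of single genes kept their side of the threshold, 117 newly passed and 87 no longer did. List medians near 0 changed sign in some alternatives. Those of the ribosomal, proteasome, respiratory complex II to V, lipid synthesis and clock lists did not. Many other lists kept their sign too, among them interferon-induced genes, glutathione S-transferases, cell cycle and complex I. A kept sign is therefore not particular to the lists named first. The limits are 4 livers per group, 1 array for S2 and S3, and a Sox6 level near background.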

Other observations

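Some genes differed more among the control livers than between treatments. Erdr1, a transcript near the end of the sex chromosomes, read 9.57, 8.23, 9.95 and 9.54 in SOX6 livers, against 4.42, 10.47, 9.74 and 10.52 in control livers. The fat sample labelled C1 was low as well, at 4.41, against 8.73 to 10.81 in the SOX6 fat samples and 10.17 to 10.69 in the other control fat samples. Whether a label is the same mouse in both tissues is not stated. Moxd1, a copper-dependent monooxygenase-like protein, read 6.26, 4.36, 4.28 and 8.81 in SOX6 livers, against 5.87, 7.12, 4.75 and 10.19 in control livers. Gadd45g, a stress-inducible growth arrest gene, read 6.83, 11.59, 9.66 and 12.22 in SOX6 livers, against 10.91, 7.64, 12.02 and 12.21 in control livers. Tff3, a trefoil peptide, was highest in C1, at 10.86, and Mfsd2a, a lysolipid transporter, was lowest there, at 5.46. Erdr1, Moxd1, Gadd45g, Tff3 and Mfsd2a did not pass limma's test (adjusted p = 0.809 to 0.915), and their treatment groups overlapped.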
